A study of Mus musculus with 10 samples.

Results

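The comparison set 2 mouse RH-RAS leukemia cell lines treated with an inhibitor of the histone methyltransferase Dot1l against 3 lines carrying the NUP98-JARID1A fusion. It used 5 of the 10 arrays of the study, chosen by their labels alone, and all 11993 genes that passed the filter on low values. The treated arrays were RH-RAS lines 1 and 3 after 4 days in 1 µM SGC0946, a Dot1l-selective small molecule. RH-RAS lines were made ex vivo by expressing mutant DNMT3A, a DNA methyltransferase, along with mutant NRAS, and each was derived independently according to the labels. The NUP98-JARID1A lines 1, 2 and 3 are progenitors transformed by a fusion of the nucleoporin NUP98 to the demethylase JARID1A (Kdm5a), and they received no inhibitor. Oncogene and inhibitor therefore differed together between the groups. The untreated arrays of the same RH-RAS lines 1 and 3 served as the reference that shows which differences were there before treatment. All lines are called leukemia stem cells by the submitters and were grown in Opti-MEM medium with serum and stem cell factor. Whether a vehicle was used, and in which batches cells were grown and arrays scanned, is not stated in the sources read. Separate derivation is stated for the RH-RAS lines only, so for the fusion lines p-values measure the spread between these arrays, which may be technical.

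DOT1L methylates a lysine in the core of histone H3 along transcribed genes, and leukemias driven by MLL fusions depend on it to keep Hoxa and Meis1 genes active. NUP98-JARID1A reads a methylated histone tail through a PHD finger and also holds Hox genes in an active state, which blocks myeloid differentiation. Neutrophil maturation runs through primary granules, made in promyelocytes, and then secondary and tertiary granules, while monocytes and macrophages build lysosomes, Fc receptors and scavenger receptors.

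Values are log2 intensities on Affymetrix mouse arrays of 45101 probe sets, normalized by RMA, and a difference of 1 is a 2-fold change. Array medians lay between 5.72 and 5.82. The treated arrays were very alike, with 1 gene more than 2-fold apart between lines 1 and 3, and the untreated arrays of these lines had 17 such genes. The fusion lines varied more, with 515 to 725 genes over 2-fold apart in a pair. All groups shared 1 estimate of the spread per gene in limma, the linear model used for every adjusted p given here. Probe sets for Nras, Dnmt3a, Nup98 and Kdm5a read the cells' own genes and need not read the introduced ones. On the probe set of highest mean, none of the 4 was called between treated RH-RAS and fusion lines. Differences over all probe sets ranged from -0.09 to 2.6 for Kdm5a and from -1.14 to 1.16 for Dnmt3a. They ranged from 0.1 to 0.65 for Nup98 and from 0.03 to 0.28 for Nras. Because whole cultures were measured, fewer cells of a type and less RNA per cell cannot be told apart.

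Inhibitor-treated RH-RAS cells still differed from the fusion lines at 4830 genes, 40.3% of those tested, at an adjusted p under 0.05. Of these, 1794 genes (15.0%) were higher and 3036 (25.3%) were lower in the treated cells, and 627 and 980 of them differed at least 2-fold. Before treatment the same RH-RAS lines differed at 5442 genes (45.4%), 1934 higher (16.1%) and 3508 lower (29.3%). Treatment itself changed 1434 genes (12.0%) in lines 1 and 3, 820 upward (6.84%) and 614 downward (5.12%). With the RH-RAS line as a block, which pairs each treated array with the untreated array of its line, the treatment changed 844 genes. The arrays of treated and fusion lines did not overlap at 7749 genes (64.6%). The median difference over all genes was -0.08 after and -0.10 before treatment.

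The differences before and after treatment share the fusion arrays, so they were sorted by rule and not correlated. A difference called on the same side both times is named kept. One that was called before, no longer called after, and moved toward the fusion lines by the test of treated against untreated cells is named closed. Of the 5442 genes that differed before treatment, 3523 (64.7%) were kept, 2322 of them lower and 1201 higher in RH-RAS cells. For 3132 kept genes no change by the inhibitor was called, 263 moved toward the fusion lines and 128 moved away. The closed genes numbered 555 (10.2%), 347 that had been lower and 208 that had been higher. At 1310 genes (24.1%) the difference lost its call without a called change. Another 54 genes (0.992%) reversed, 37 from lower to higher and 17 from higher to lower. The inhibitor opened differences at 377 genes that were not called before, 182 higher and 195 lower. With the line as a block, closed genes numbered 312 and opened genes 217. These classes rest on both RH-RAS arrays of a kind: without treated line 3 the closed genes fell to 6 and without treated line 1 to 48, as a single array carried the arm.

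**Figure D1:**
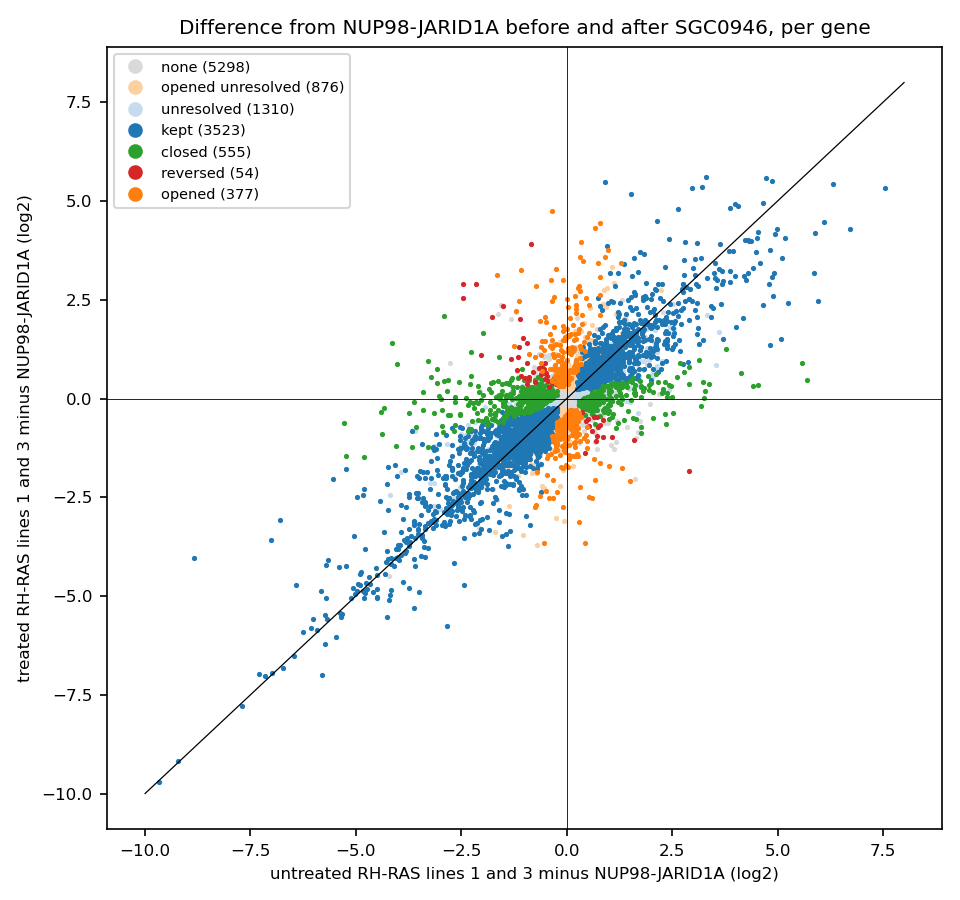
Each point is a gene, with the log2 difference of untreated RH-RAS lines 1 and 3 from the NUP98-JARID1A mean on the x axis and that of the treated arrays on the y axis. Both axes share the fusion arrays. Kept genes (3523) follow the diagonal down to almost -10, closed genes (555) lie along the horizontal zero line and reversed genes (54) in the opposite quadrants.

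Sorted by their size before treatment, differences fell into the classes as follows, given as a description since a larger difference passes the threshold more easily and both calls use the fusion arrays. Of the 3580 differences under 1 log2 unit before treatment 58.6% were kept, of the 1190 between 1 and 2 units 74.9%, and of the 116 between 4 and 6 units 87.1%. All 19 differences of 6 units or more were kept. Of those under 1 unit, 32.0% lost the call without a called change. The share that closed showed no such order, at 8.32% under 1 unit, 13.9% between 1 and 2 units, 15.3% between 2 and 3, 12.7% between 3 and 4 and 12.1% between 4 and 6.

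**Figure D2:**
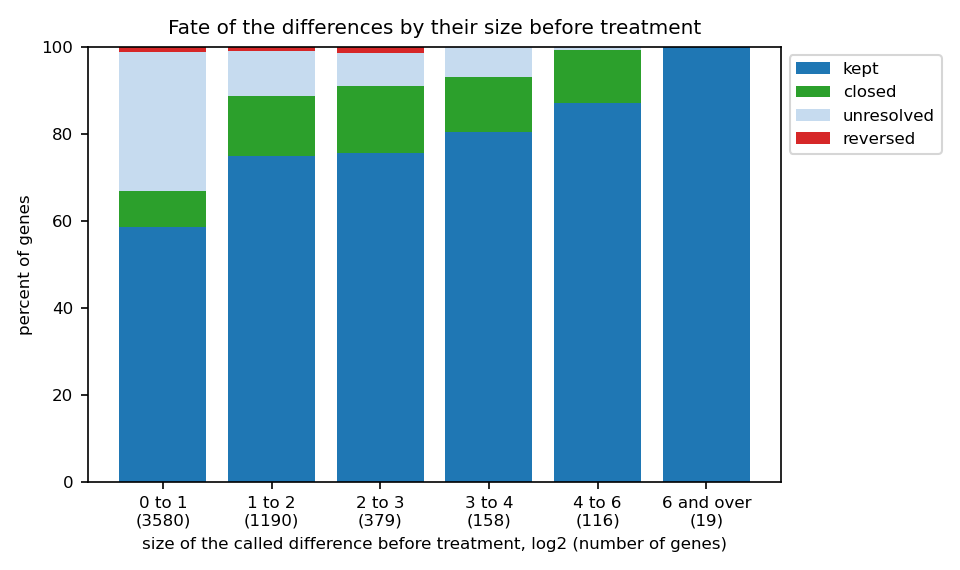
Bars give the percent of genes kept, closed, unresolved (not called after treatment, with no called change) or reversed, by the size of the difference before treatment on the log2 scale. The kept share rises from 58.6% under 1 unit to 100% at 6 units and over, while no difference of 3 units or more reversed.

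The counts of each gene list below are read against the shares over all genes tested, 15.0% higher and 25.3% lower after treatment, and no list was tested as a set. Late neutrophil granule genes remained far below the fusion lines. Of 21 tested, 17 were lower in treated RH-RAS cells than in fusion lines and none was higher, and 18 had been lower before treatment. The median difference was -4.68 after and -5.05 before. The same 17 genes were kept, with folds from 5.10 to 845, and on each of them NUP98-JARID1A line 2 was the lowest fusion array, still above both treated arrays. S100a9, a calcium-binding protein abundant in neutrophils, read 4.27 and 4.13 on the treated arrays, 4.55 and 3.98 untreated, and 14.52, 12.93 and 14.32 in the fusion lines. All RH-RAS arrays were near the bottom of the scale and all fusion arrays near the top. S100a9 was 845-fold lower (-9.72 ± 0.45 SE, adjusted p = 2.12e-05), and its partner S100a8 was 576-fold lower (-9.17 ± 0.41). Values near the floor of an array understate such folds.

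For several genes of secondary granule proteins no change by the inhibitor was called. Ngp, a neutrophil granule protein, read 5.28 and 5.35 treated, 5.44 and 5.10 untreated, and 14.25, 9.85 and 12.71 in the fusion lines. The treated arrays lay within the untreated range and far under every fusion array (-6.96 ± 1.06, adjusted p = 0.00216). Ltf, which encodes lactoferrin, read 5.67 and 5.74 against 12.71, 9.08 and 11.79 (-5.49 ± 0.90). Lcn2, the iron-siderophore binder lipocalin 2, differed by -6.97 ± 0.94, Olfm4 by -6.82 ± 1.00, and the stefin genes Stfa3 and Stfa2l1 by -7.03 ± 1.09 and -6.51 ± 0.75. Other members came partway and stayed lower. Mmp8, neutrophil collagenase, rose from 5.02 and 5.21 to 7.55 and 7.66 under the inhibitor, below 10.76, 9.62 and 9.86 in the fusion lines. Hp, haptoglobin, rose from 7.25 and 6.81 to 8.56 and 8.66 against 12.57, 11.38 and 12.29, although its rise lost the call with lines blocked (adjusted p = 0.0932). Anxa1, annexin A1, was the member that closed, rising from 10.34 and 10.38 to 12.36 and 12.36, inside the range of the fusion arrays, whose mean was 12.47. Its rise was also not called with the block (adjusted p = 0.0692). Camp, the cathelicidin gene, was lower by -4.15 ± 1.33 but was not called with the block (adjusted p = 0.107). With the block 13 of the 21 genes were lower.

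**Figure D3:**
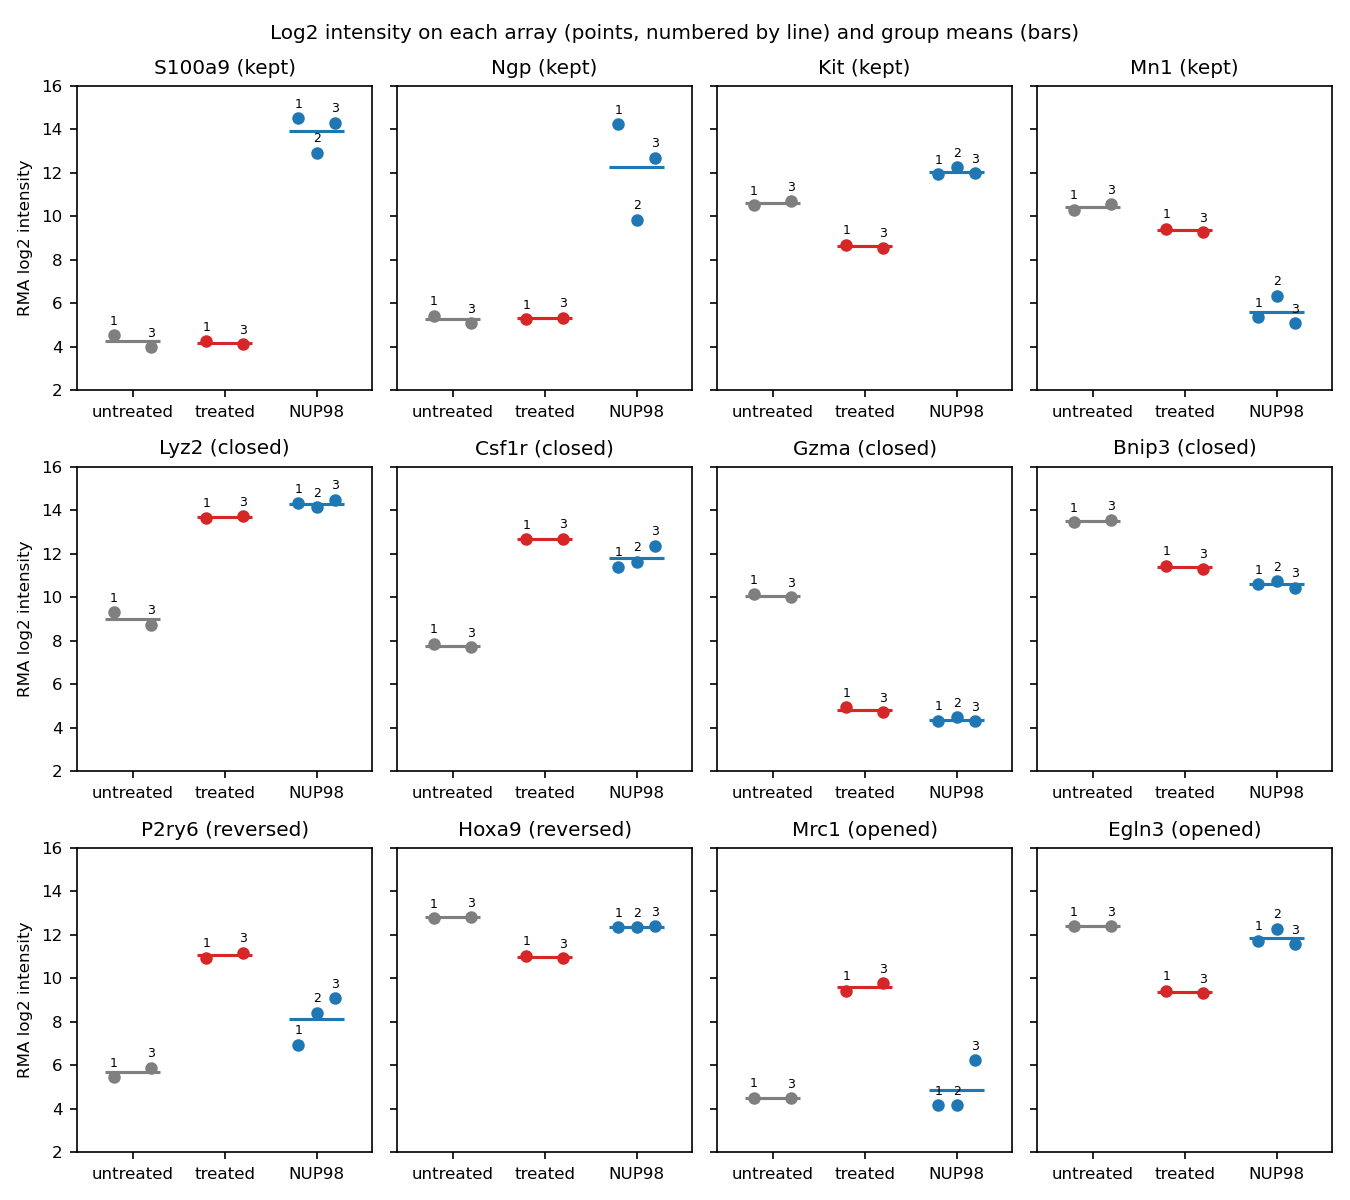
Points are the log2 intensities of single arrays, numbered by line, and horizontal bars the means of untreated RH-RAS (2 arrays), treated RH-RAS (2) and NUP98-JARID1A lines (3); the class of each gene stands in brackets. S100a9 and Ngp stay at the untreated level. Lyz2 rises to just under the fusion arrays and Csf1r to just above them, and neither remaining difference was called. P2ry6 and Mrc1 pass the fusion level, and Hoxa9 and Egln3 drop under it.

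Promoters of Ltf, Ngp, Lyz1 and Cd68 are shown as examples, and each holds the motif marked below, which most windows of their lists lacked. Whether the motif bears on the course of a gene under the inhibitor was not tested. Late granule genes mostly stayed low, while many macrophage genes rose to near or above the fusion level. Sequences are the 250 bases upstream of the RefSeq start on GRCm38.p6, read along the gene, with capitals marking TTGCNNAA on either strand, the core of sites bound by C/EBP factors. Ltf and Ngp were kept lower, and Lyz1 and Cd68 closed.
Ltf (chr9:111019042-111019291, plus strand): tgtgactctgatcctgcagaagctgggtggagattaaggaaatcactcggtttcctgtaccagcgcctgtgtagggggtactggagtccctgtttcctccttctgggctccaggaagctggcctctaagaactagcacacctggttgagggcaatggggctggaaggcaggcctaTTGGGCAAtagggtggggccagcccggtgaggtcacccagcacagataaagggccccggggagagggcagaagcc
Ngp (chr9:110419558-110419807, plus strand): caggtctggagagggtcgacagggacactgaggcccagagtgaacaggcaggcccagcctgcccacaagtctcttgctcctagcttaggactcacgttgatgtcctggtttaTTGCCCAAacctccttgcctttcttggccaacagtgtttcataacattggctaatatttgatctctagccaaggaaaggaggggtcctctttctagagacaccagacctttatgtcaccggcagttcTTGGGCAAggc
Lyz1 (chr10:117292869-117293118, minus strand): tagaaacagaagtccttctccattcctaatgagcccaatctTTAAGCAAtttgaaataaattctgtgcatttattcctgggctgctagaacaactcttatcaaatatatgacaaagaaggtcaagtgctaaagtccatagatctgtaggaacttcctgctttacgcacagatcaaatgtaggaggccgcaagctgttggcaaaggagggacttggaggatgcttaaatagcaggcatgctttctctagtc
Cd68 (chr11:69666171-69666420, minus strand): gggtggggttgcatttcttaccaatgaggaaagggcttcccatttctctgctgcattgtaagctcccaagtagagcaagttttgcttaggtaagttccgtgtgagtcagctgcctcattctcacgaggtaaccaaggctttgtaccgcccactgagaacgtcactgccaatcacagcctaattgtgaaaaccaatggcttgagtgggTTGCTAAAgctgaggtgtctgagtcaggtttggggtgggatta
Counted from the transcription start, the match begins at position -75 in Ltf, -138 and -11 in Ngp, -209 in Lyz1 and -43 in Cd68. Late neutrophil genes had 19 such windows and 6 held the motif (31.6%), monocyte and macrophage genes had 34 and 5 held it (14.7%), and 9.56% of all 32851 mouse promoter windows held it. Among tested genes 7.5% of all windows, 8.39% of windows of kept lower genes and 10.5% of windows of closed genes that had been lower held it. GAGGAAGT, a site type of the myeloid factor PU.1, was in 4 of the 19 neutrophil windows (21.1%), 1 of the 34 macrophage windows (2.94%) and 2.44% of all windows. These are matches of letters and show no binding.

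Primary granule genes, which are made earlier in the same lineage, were divided. Of 14 tested, 10 were lower in treated RH-RAS cells and 1 was higher, and the median difference went from -1.97 before to -1.06 after treatment. Ctsg, cathepsin G, read 9.47 and 9.50 treated against 13.97, 13.53 and 13.75 in the fusion lines, with no overlap (-4.26 ± 0.49, adjusted p = 0.000664). Ms4a3 (-4.80 ± 0.93) and Elane, neutrophil elastase (-4.03 ± 0.92), also stayed lower, and Elane lost the call when either treated array was left out. Mpo, myeloperoxidase, was abundant in all arrays and remained 4.23-fold lower. Prtn3, proteinase 3, rose from 10.86 and 10.87 to 13.01 and 12.90, just under the fusion values of 13.98, 13.62 and 13.78. Its remaining difference of -0.84 ± 0.30 was not called (adjusted p = 0.061), but was with lines blocked (adjusted p = 0.011).

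Regulators of granulocyte fate followed both courses. Of 13 tested, 7 were lower and 3 higher than in fusion lines after treatment, against 8 and 2 before. Gfi1, a repressor needed for neutrophil differentiation, read 7.57 and 7.50 against 10.58, 9.65 and 10.29 (-2.64 ± 0.25), and Cebpa was lower by -1.59 ± 0.32, a call lost without treated line 3. Csf3r, the G-CSF receptor, was 5.69-fold lower after a rise of 1.03 ± 0.24 that was not called with lines blocked (adjusted p = 0.0828). Spi1, which encodes PU.1, rose from 9.99 and 10.09 to 11.19 and 11.31, just under 11.49, 11.54 and 11.72. Its small remaining difference (-0.33 ± 0.11, adjusted p = 0.0419) was not called with the block (adjusted p = 0.0673). Klf4, a factor of monocyte differentiation, went the other way. It rose from 5.32 and 5.41 to 9.70 and 10.17, while the fusion lines read 4.59, 4.33 and 4.45, a 44.5-fold excess (5.48 ± 0.29, adjusted p = 3.62e-05). Irf8, a monocyte and dendritic cell factor, rose from 9.83 and 10.12 to 11.78 on both treated arrays, above 10.45, 10.96 and 10.81, and with lines blocked it was also called lower before treatment (adjusted p = 0.0275).

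Monocyte and macrophage genes had the largest median change by treatment of the 34 lists, 3.03. Of 34 tested, 23 were lower and 1 was higher than in the fusion lines before treatment, and 5 were lower and 11 higher after it. Treatment raised 21 of them and lowered none. The median difference went from -2.24 to 0.38. By class, 10 closed, 6 opened upward, 3 reversed, 5 lost the call without a called change and 6 were kept. Leaving out an array reduced the number raised to 7 (treated line 1), 2 (treated line 3), 6 (untreated line 1) and 7 (untreated line 3). The number higher than fusion lines was 5 without treated line 1 and 4 without treated line 3.

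Closed macrophage genes included the lysozymes and the receptor for M-CSF. Lyz2, the myeloid lysozyme, read 9.32 and 8.74 untreated, 13.67 and 13.75 treated, and 14.33, 14.14 and 14.49 in the fusion lines. The treated arrays lay just under the fusion arrays and far above the untreated ones. Treatment raised Lyz2 25.7-fold (4.68 ± 0.41, adjusted p = 0.00293), and the remaining difference was -0.61 ± 0.37 (adjusted p = 0.227). Lyz1 rose from 10.29 and 9.67 to 14.04 and 14.08, against 14.47, 14.22 and 14.48. Csf1r rose from 7.87 and 7.71 to 12.67 and 12.71, slightly above the fusion values of 11.41, 11.64 and 12.38, a difference that was not called (0.88 ± 0.61, adjusted p = 0.289). Untreated lines 2 and 4, outside this reference, read 7.77 and 10.13 for Csf1r, and this gap enters its SE. Adgre1, which encodes F4/80, rose from 5.24 and 4.17 to 8.71 and 8.88, within the fusion range of 8.30 to 9.63. Cd68, a lysosomal membrane protein, reached 11.05 and 11.06, also within the fusion range of 10.42 to 11.60. Cd14, the endotoxin co-receptor, reached 12.26 and 12.34, above the fusion values of 9.38, 9.81 and 11.42, but this difference was not called (2.10 ± 0.99, adjusted p = 0.13).

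Other macrophage genes passed the fusion lines. Mrc1, the mannose receptor, read 4.52 and 4.50 untreated, 9.44 and 9.77 treated, and 4.16, 4.16 and 6.23 in the fusion lines. Untreated and fusion arrays overlapped and both treated arrays stood above them, 27.0-fold over the fusion mean (4.75 ± 0.63, adjusted p = 0.00126). Fcgr1, the high-affinity IgG receptor, went from 7.25 and 7.15 to 10.81 and 10.87, against 6.53, 5.87 and 6.80 (4.44 ± 0.42). Cx3cr1, the fractalkine receptor, reached 10.57 and 10.60 against 7.20, 8.17 and 7.87. P2ry6, a nucleotide receptor of macrophages, reversed from 5.47 and 5.89 to 10.95 and 11.18, with the fusion lines between at 6.95, 8.42 and 9.08. It was 2.91 ± 0.59 above them after treatment (adjusted p = 0.00715) and -2.47 below before (adjusted p = 0.0121). Dab2, an endocytic adaptor, and Tgfbi, a matrix protein, showed the same order, ending at 11.00 and 11.14 and at 11.52 and 11.75. With the line as a block the difference of Dab2 before treatment and both differences of Tgfbi were not called. Their calls after treatment were also lost when either treated array was left out.

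A few macrophage genes kept their difference from the fusion lines, some of them after a rise. F13a1, coagulation factor XIII of monocytes, rose from 6.55 and 6.32 to 9.80 and 9.92 and was still 12.0-fold under the fusion values of 13.53, 12.98 and 13.83. Gpnmb, a glycoprotein of lysosome-rich macrophages, read 5.75 and 5.57 treated, 5.64 and 5.28 untreated, and 8.65, 8.51 and 9.81 in the fusion lines (-3.33 ± 0.37). Fcgr3, an IgG receptor shared with neutrophils, rose by 1.97 ± 0.18 and stayed 2.33-fold lower. Cd163, a scavenger receptor, was higher before as well as after treatment, at 7.86 and 7.73 against 5.61, 2.50 and 5.73, a call lost with lines blocked (adjusted p = 0.0735).

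Genes of phagocytic function moved with the macrophage list, with which the lysosome list shares Cd68 and Ctss. Of 30 lysosome genes, 21 were lower before and 7 after treatment, 17 rose and none fell, and the median difference went from -1.01 to -0.24. The 10 that closed include Ctsb, Lipa, Npc1, Psap, Grn and Cd68, the last of them also in the macrophage list, and the rise of Psap was not called with lines blocked (adjusted p = 0.0641). Lgmn, the protease legumain, was already higher before and read 12.49 and 12.56 after treatment against 6.59, 7.50 and 9.08 (4.80 ± 0.64). Ctsh, cathepsin H, was higher both before and after, at 11.06 and 11.11 against 7.79, 6.54 and 7.99, and its rise was not called with lines blocked (adjusted p = 0.105). Lysosome genes that rose numbered 2 when treated line 1 was left out, 0 for treated line 3, 2 for untreated line 1 and 3 for untreated line 3.

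Of 8 NADPH oxidase genes, 6 were lower before and 4 after treatment, and 2 were higher after. Cybb, the catalytic subunit of the phagocyte oxidase, rose from 7.06 and 6.97 to 11.20 and 11.28, just above 10.73, 9.06 and 11.12, a difference not called. Hvcn1, a proton channel, stayed at 7.06 and 6.99 against 9.84, 8.52 and 10.23. Of 19 Fc receptor and C-type lectin genes, 16 were lower before and 10 after, and 2 were higher after. The 2 higher genes, Fcgr1 and Clec4a3, are also counted in the macrophage list, as are Fcgr3, Fcgr4 and Clec4a2. Trem3 and Trem1, activating receptors of granulocytes and monocytes, stayed lower by -5.53 ± 0.39 and -3.15 ± 0.21 with no called change.

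Antigen presentation genes stood on the other side. Of 12 tested dendritic cell and MHC class II genes, 11 were higher in treated RH-RAS cells and none lower, against 6 higher and 1 lower before. The number higher was 8 with the line as a block. H2-Aa, an MHC class II chain, read 9.26 and 9.19 treated, 8.60 and 7.84 untreated, and 6.25, 5.67 and 5.75 in the fusion lines (3.34 ± 0.34, with probe sets from 0.17 to 3.71). Cd83, a surface protein of mature dendritic cells, rose from 4.60 and 4.54 to 8.19 and 8.01 against 3.96, 5.62 and 4.89. Cd74, the invariant chain, was level with the fusion lines before (8.60 and 8.37 against 8.54, 8.61 and 8.33) and rose to 9.97 and 10.09.

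Of 26 interferon-stimulated genes, 14 were lower before and 5 after treatment. Treatment raised 7, of which 4 closed, while 6 lost the call with no called change, and the median difference went from -1.02 to 0.12. Ifitm3, an antiviral membrane protein, had the largest treatment change in this list, from 4.00 and 4.90 to 9.15 and 9.38. It remained 16.4-fold under the fusion mean of 13.3 (SD 0.27, n = 3) (-4.04 ± 0.35, adjusted p = 0.000223). Ifitm2 rose by 1.98 ± 0.24 and remained 1.69-fold lower, and Ifitm1 reached the fusion range. Oas1a and Ifi27l2a varied widely among the fusion lines, at 8.02 to 10.90 and 7.22 to 10.54, and were not called after treatment.

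Most glycolysis and hypoxia genes fell under treatment, many of them to, or under, the fusion lines. Of 24 tested, 15 were higher and 3 lower than in fusion lines before treatment, and 4 were higher and 8 lower after it. The 4 that stayed higher were Slc2a3, Pfkp, Vegfa and Ndrg1, and with lines blocked 6 were higher. Treatment lowered 16 of them and raised none, and the median difference went from 0.76 to -0.07. The 7 closed genes were Slc2a1, Tpi1, Pgk1, Pdk1, Bnip3, Ankrd37 and Higd1a, of which Ankrd37 stayed higher with lines blocked (adjusted p = 0.0409). Bnip3, a mitophagy receptor induced by low oxygen, read 13.46 and 13.54 untreated, 11.47 and 11.32 treated, and 10.60, 10.76 and 10.45 in the fusion lines. It fell 4.31-fold, and the remaining difference of 0.79 ± 0.29 was not called (adjusted p = 0.0624) but was with lines blocked (adjusted p = 0.0113). Pgk1, phosphoglycerate kinase, fell from 14.31 and 14.27 to 13.60 and 13.44, within the fusion range of 13.50 to 13.71. Slc2a1, a glucose transporter, fell from 12.03 and 12.17 to 10.45 and 10.57 against 10.19, 10.16 and 9.98, and with the line as a block it stayed higher (adjusted p = 0.0419).

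Several genes of this list fell below the fusion lines. Egln3, an oxygen-sensing prolyl hydroxylase, read 12.39 and 12.41 untreated and 11.74, 12.29 and 11.57 in the fusion lines, and fell to 9.44 and 9.31 (-2.49 ± 0.29 against fusion lines, adjusted p = 0.000765). Ak4, a mitochondrial adenylate kinase, reversed from 10.38 and 10.32 to 5.55 and 5.69, with the fusion lines between at 7.80, 7.19 and 7.34. Its final difference (-1.83 ± 0.52, with probe sets from -2.01 to 0.03) lost the call when treated line 1 or 3, or fusion line 1 or 3, was left out. Hk2, Pfkl and Pkm, which encode glycolytic enzymes, were opened downward by -0.91 ± 0.23, -0.93 ± 0.24 and -0.71 ± 0.18. With lines blocked Pfkl was called higher before treatment (adjusted p = 0.023) and so reversed. Car9 and Hk1 were lower both before and after. The number of genes lowered by treatment was 1 without treated line 1, 0 without treated line 3, and 1 without untreated line 1 or 3. Higher calls against fusion lines numbered 0 to 7 over the fits without 1 array (0 without treated line 1, 1 without treated line 3).

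Promoters of Bnip3 and Pgk1, closed genes of this list, are shown as examples that hold the motif ACGTG. It is in capitals on either strand and is the core bound by hypoxia-inducible factors, contained in the E-box CACGTG.
Bnip3 (chr7:138909507-138909756, minus strand): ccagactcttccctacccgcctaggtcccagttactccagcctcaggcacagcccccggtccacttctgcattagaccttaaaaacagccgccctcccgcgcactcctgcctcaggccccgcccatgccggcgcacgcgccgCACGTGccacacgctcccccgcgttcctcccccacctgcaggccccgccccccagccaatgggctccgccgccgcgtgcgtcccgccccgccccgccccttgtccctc
Pgk1 (chrX:106186850-106187099, plus strand): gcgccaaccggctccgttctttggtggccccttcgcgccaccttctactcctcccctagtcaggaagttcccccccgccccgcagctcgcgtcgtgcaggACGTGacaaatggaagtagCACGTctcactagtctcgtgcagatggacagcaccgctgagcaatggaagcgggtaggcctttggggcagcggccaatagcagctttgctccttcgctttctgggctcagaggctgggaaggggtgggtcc
The matches begin at positions -108 and -107 in Bnip3, where both strands of 1 E-box overlap, and at -150 and -131 in Pgk1. The motif was in 16 of 34 windows of the list (47.1%), in 37.0% of windows of proliferation genes, in 28.0% of windows of all closed genes that had been higher, in 20.5% of those of kept higher genes, in 35.7% of those of lysosome genes, in 21.2% of windows of all genes tested, and in 16.6% of all promoter windows. As above, these are matches of letters only.

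Hoxa genes, the classic targets of MLL fusions and DOT1L, ended below the fusion lines. Of 7 tested, 6 were lower and 1 higher after treatment, against 2 lower and 3 higher before. Hoxa9 read 12.78 and 12.83 untreated, 11.05 and 10.93 treated, and 12.36, 12.36 and 12.40 in the fusion lines. No groups overlapped, and the difference turned from 0.44 to -1.38 ± 0.12 (adjusted p = 0.000241). Hoxa10 fell from 10.00 and 10.31 to 8.09 and 8.14 against 9.29, 8.82 and 9.14, so that its difference went from 1.08 to -0.97, while its other probe set gave -0.17 after treatment. Hoxa5 was level before, at 9.20 and 9.55 against 9.41, 9.84 and 9.57, and fell to 7.28 and 7.20 (-2.37 ± 0.26). Hoxa7 was lower by -0.82 ± 0.14 after treatment, and its change of -0.55 ± 0.16 was not called (adjusted p = 0.064). Hoxa11 stayed higher by 0.86 ± 0.18. The number of Hoxa genes lower than fusion lines was 5 or 6 in each fit without 1 array.

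The Hoxb genes were lower before and after. Hoxb3, Hoxb4 and Hoxb5, all 3 tested, differed by -1.64 ± 0.42, -1.23 ± 0.19 and -1.94 ± 0.63 with no called change. With the line as a block Hoxb4 alone was called. Hoxb3 lost the call without either treated array, and Hoxb5 when any RH-RAS array or fusion line 1 or 2 was left out.

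Partners and co-targets of Hox genes were divided as well. Of 23 tested, 10 were lower and 4 higher after treatment, against 7 and 8 before. Meis1, a homeobox cofactor of Hoxa9, was level before (8.05 and 7.96 against 7.83, 8.22 and 8.08) and fell to 6.63 and 6.73 (-1.36 ± 0.12). Its 3 probe sets gave differences from -1.36 to 0.18, and the call was lost with the probe set of largest variance. Myb, a factor of progenitor growth, fell from 13.27 and 13.18 to 12.19 on both arrays against 13.31, 13.26 and 13.06. Mn1, a co-activator that transforms progenitors, remained high: 10.31 and 10.56 untreated, 9.43 and 9.28 treated, and 5.37, 6.35 and 5.10 in the fusion lines (3.75 ± 0.33, adjusted p = 0.000253). Eya1 and Mecom, a stem cell factor gene, remained low, by -5.02 ± 0.70 and -3.77 ± 0.81, though their probe sets ranged from -5.02 to -0.72 and from -3.77 to -0.19. Pbx3, another Hox cofactor, read 5.38 and 5.74 against 7.0, 9.44 and 9.37, with no called change. Mecom and Pbx3 lost their calls when either treated array was left out. Mycn was abundant everywhere and was not called after treatment (0.09 ± 0.21).

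Stem and progenitor genes were on balance lower in treated RH-RAS cells, with 12 of 21 lower and 4 higher, against 10 and 5 before. The 4 higher calls were 1 with the line as a block and 0 without either treated array. Kit, the receptor of the stem cell factor in the medium, read 10.52 and 10.71 untreated, 8.71 and 8.56 treated, and 11.94, 12.27 and 11.98 in the fusion lines. The gap widened from -1.45 to -3.43 ± 0.17 (adjusted p = 2.92e-05). Cd34 was level before and fell to 11.17 and 10.94 against a fusion mean of 12.74 (SD 0.25, n = 3). Angpt1, a ligand of the Tie2 receptor, fell from 9.17 and 9.19 to 6.28 and 5.85 against 9.10, 10.29 and 9.77. Erg, an ETS factor of stem cells, stayed low at 5.52 and 5.05 against 10.08, 10.21 and 10.11 (-4.85 ± 0.23, with another probe set at -0.90). Flt3 was higher by 1.08 ± 0.30, a call lost with the block and without either treated array. Kit and Cd34 were above the median of the array on all treated and fusion arrays, so both markers of the labelled stem or progenitor state were measured in both groups.

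Lymphoid genes present in RH-RAS cells were partly lost. Of 17 T and NK genes, 7 were higher and 1 lower before, and 2 and 2 after treatment. Gzma, granzyme A, fell from 10.16 and 10.02 to 4.96 and 4.73, just above 4.33, 4.50 and 4.31. It fell 37.9-fold, and the remaining difference (0.46 ± 0.62) was not called in the main fit but was with lines blocked (adjusted p = 0.0269). Untreated lines 2 and 4 read 10.5 and 7.91 for Gzma, a gap that the main fit includes in its spread and the fit with lines blocked does not. Cd3g, a chain of the T cell receptor complex, fell from 8.41 and 8.60 to 4.19 and 4.45 against 3.82, 4.18 and 3.95. Gzma and Cd3g were under the array median on all treated and fusion arrays, so their remaining differences lie between low values. Ccr9, a homing receptor of thymocytes, read 12.54 and 12.83 untreated and 10.63 and 10.29 treated, against 4.15, 6.55 and 4.69. It was still 40.3-fold higher (5.33 ± 0.63), though other probe sets of Ccr9 gave differences down to -0.07. Gata3, a T cell factor, moved away, from 6.85 and 7.18 to 4.74 and 4.63 against 8.50, 8.57 and 8.17.

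Of 10 B lymphoid genes, 6 were higher and 1 lower, the same counts as before. Rag1, a subunit of the V(D)J recombinase, fell from 10.18 and 10.14 to 7.82 and 7.68 and was still 19.7-fold over 3.29, 3.85 and 3.22. Dntt, terminal transferase, closed from 9.27 and 9.46 to 6.11 and 5.62 against 5.12, 5.23 and 5.33, and its remaining difference of 0.64 ± 0.33 was called with lines blocked (adjusted p = 0.0438). Bank1, a B cell adaptor, rose further by 1.55 ± 0.26 and Cd79b stayed higher by 2.51 ± 0.44. Gimap1, a lymphocyte GTPase, fell to 4.78 and 5.0, just under the fusion values of 5.13, 5.36 and 5.24, all of them under the array median.

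Of 24 genes under feedback from RAS and MAP kinase signaling, 8 were higher, 2 lower and 14 not called after treatment, against 11 higher and 1 lower before, and 6 were kept higher. Spry4, an inhibitor of receptor signaling, read 7.02 and 7.24 treated, 7.36 and 8.18 untreated, and 4.19, 3.73 and 3.77 in the fusion lines (3.23 ± 0.26), and its probe sets ranged from 0.29 to 3.23. Ccnd1, cyclin D1, and Etv5, an ETS factor downstream of ERK, stayed higher by 2.29 ± 0.33 and 1.69 ± 0.21. Fos reversed, rising from 8.30 and 8.28 to 10.58 and 10.59 past 9.70, 9.51 and 9.58. Egr1 fell from 8.48 and 8.76 to 6.26 and 6.07, within the fusion range of 5.47 to 6.99, a fall not called with the block (adjusted p = 0.0562).

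Cytokine receptor genes were called on both sides, 10 of 27 higher and 8 lower, against 7 and 13 before. With the line as a block the 10 higher calls were 5. Il1r2, the decoy receptor of interleukin 1, read 9.81 and 9.68 treated against 6.12, 6.35 and 7.18, and Il18r1 was higher by 2.89 ± 0.19 after falling by 1.89 on the log2 scale. Of 20 chemokine and inflammatory genes, 8 were lower, 1 higher and 11 not called. Ccl9, a macrophage chemokine, rose from 8.24 and 8.19 to 11.63 and 11.71 and was still under 13.51, 13.43 and 13.41. Among 21 adhesion genes, 7 were lower and 1 higher. Cdh1, E-cadherin, closed from 8.82 and 9.67 to 4.48 and 4.61 against 3.79, 3.65 and 3.52, though it stayed higher with lines blocked (adjusted p = 0.021). Cdh1 was under the array median on all treated and fusion arrays. Untreated lines 2 and 4 read 8.93 and 6.26 for it, a gap that enters the spread of the main fit.

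Proliferation genes were higher in treated RH-RAS cells. Of 31 tested, 22 were higher and 1 lower, against 15 and 1 before, and treatment raised 2 of them and lowered none. Another 5 were called higher only after treatment with no called change. With the line as a block 17 were higher after and 12 before, and treatment raised 1. The excess was small, with a median of 0.42. Ccne2, cyclin E2, differed by 1.81 ± 0.32, Kif11, a spindle motor, by 1.09 ± 0.17, and Mki67 by 0.50 ± 0.09. Among 19 p53 target and cell cycle inhibitor genes, 9 were higher and 3 lower. Cdkn1a, the inhibitor p21, stayed higher by 1.37 ± 0.20, while Gadd45a, a DNA damage gene, fell from 8.43 and 8.44 to 6.85 and 6.73 against 8.25, 8.53 and 7.78.

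Of 19 cholesterol synthesis genes, 11 were higher before and 2 after treatment, but 7 of them lost the call with no called change. Msmo1 stayed higher by 1.09 ± 0.15. Of 24 amino acid and unfolded protein stress genes, 9 were higher and 1 lower, among them Chac1 at 1.86 ± 0.29 and Trib3 at 1.66 ± 0.31, and Atf3 rose above the fusion lines to 9.72 on both arrays, a rise not called with the block (adjusted p = 0.102). Of 30 genes of ribosome biogenesis and MYC activity, 8 were lower and 2 higher, with the lower share near the 25.3% over all genes and the higher one under the 15.0%. Nop58 differed by 0.92 ± 0.17 and Polr1b by -0.86 ± 0.17. Treatment lowered Myc and Odc1 of that list, and neither fall was called with the block (adjusted p = 0.101 for Myc and 0.0918 for Odc1).

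Dot1l itself was not called (0.15 ± 0.13), at 8.49 and 8.42 against 8.25, 8.45 and 8.20, but a second probe set gave -1.07 and was called. Of 18 genes of the DOT1L complex and its partners, 3 were higher and 3 lower. Mllt3, which encodes the DOT1L recruiter AF9, fell from 10.32 and 10.42 to 7.63 and 7.72 and remained 8.99-fold over 4.61, 3.58 and 5.34. That fall was not called with the block (adjusted p = 0.0572). Kmt2a, the MLL gene, was lower by -1.32 ± 0.19. Of 17 DNA methylation genes, 4 were higher and 5 lower. Tet1, a methylcytosine oxidase, was higher by 2.95 ± 0.42, with probe sets from 0.07 to 2.95, and Dnmt3l, a cofactor of Dnmt3a, lower by -2.72 ± 0.43, both without a called change. Of 29 histone methylation genes, 1 was higher and 6 lower, neither share above that over all genes, against 9 and 3 before. Kdm5b, a paralog of the demethylase in the fusion, fell from 8.72 and 9.03 to 5.39 and 5.56 against 8.21, 9.80 and 7.77. Its probe sets ranged from -3.12 to -0.09, and its fall was not called with the block (adjusted p = 0.0516).

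**Figure D4:**
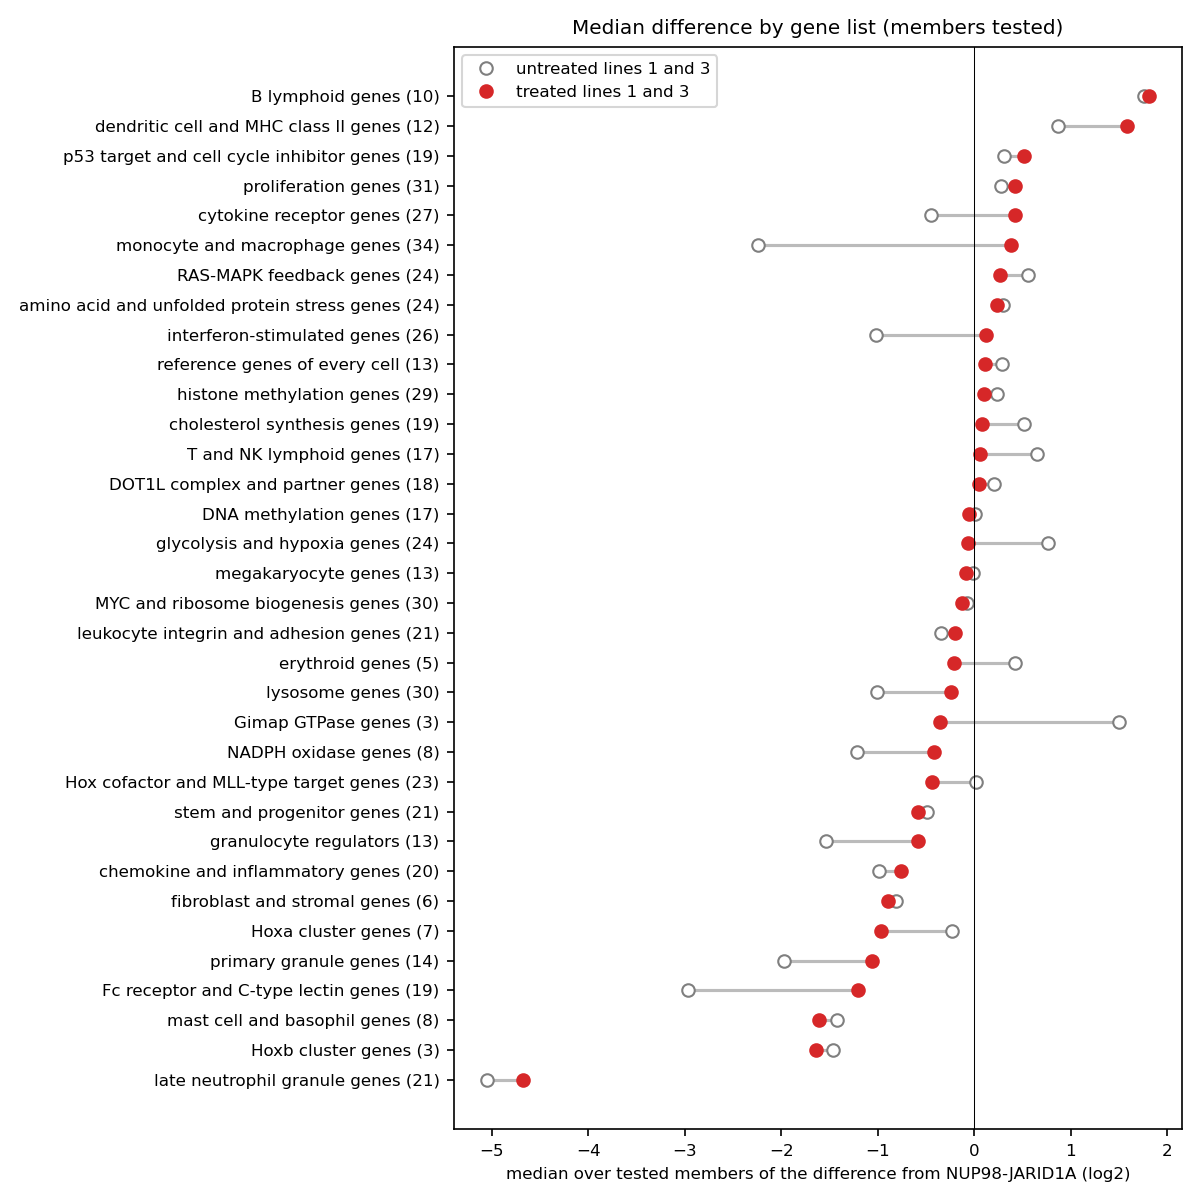
Each row is a gene list with its number of tested members; open points are the median log2 difference from the NUP98-JARID1A lines before treatment and red points that after. Late neutrophil genes stay near -5, monocyte and macrophage genes cross from -2.24 to 0.38, and glycolysis and hypoxia genes drop from 0.76 to -0.07, while the median over all genes was -0.08 after treatment.

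The largest single differences after treatment were mostly there before it. Among genes higher in treated cells, Lifr, the LIF receptor, led with 9.14 and 9.48 against 3.34, 4.07 and 3.65 (5.62 ± 0.28, 49.2-fold), and it had been 3.30 higher before. Vegfc, a lymphangiogenic growth factor, and Zfp36l1, an RNA-binding protein, stayed higher by 5.50 ± 0.32 and 4.94 ± 0.42 with no called change. Lmna, which encodes lamins A and C, and Ctnnd2, a catenin, moved further away, by 2.14 ± 0.22 and 2.38 ± 0.16, to 5.36 and 5.34 above the fusion lines. Malat1, a nuclear long noncoding RNA, differed by 5.43 ± 0.33. Probe sets of 1 gene disagreed in several cases: from -1.36 to 5.68 for Malat1, -0.15 to 5.36 for Lmna, and -0.08 to 5.17 for Pid1. Among lower genes outside the granule list, Pygl, liver glycogen phosphorylase, read 3.55 and 3.86 against 11.12, 9.86 and 11.15 (-7.0 ± 0.50). Mgst1, a glutathione transferase, read 3.01 and 3.16 against 11.44, 9.23 and 11.97 (-7.79 ± 0.70), and its other probe set gave -0.02.

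**Figure D5:**
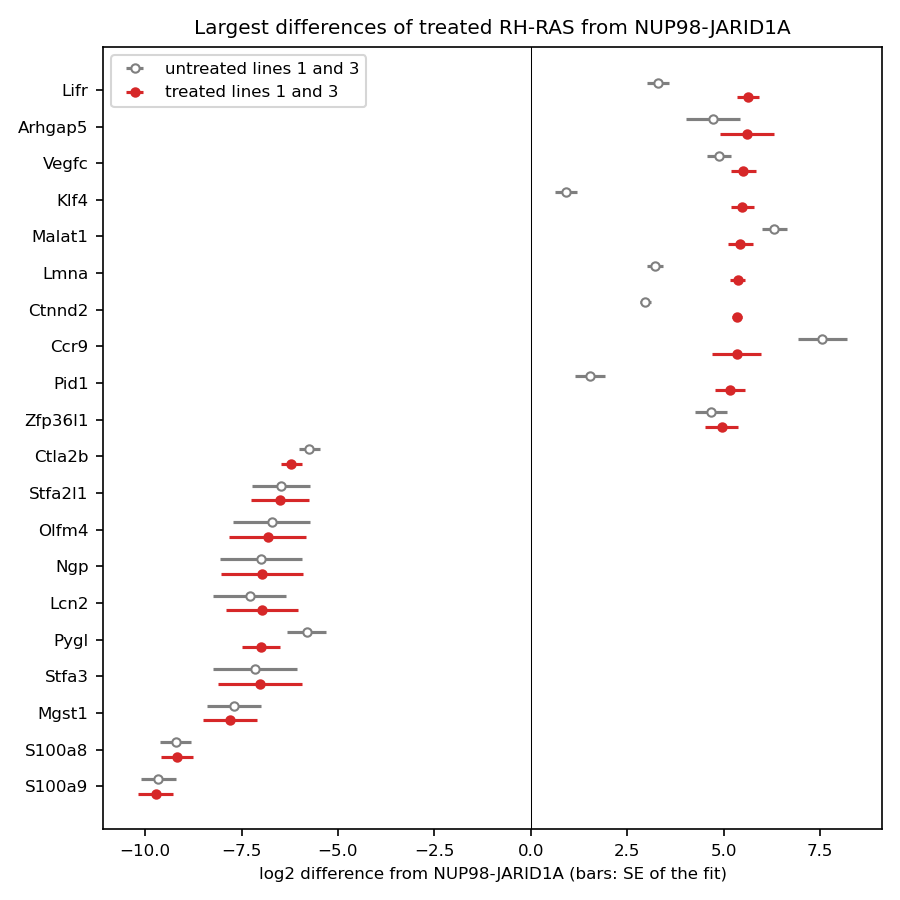
Points are the log2 differences from the NUP98-JARID1A mean for the 10 genes highest and the 10 lowest in treated RH-RAS cells, open before and red after treatment, with the SE of the fit as bars. Lower genes such as S100a9 (-9.72) and S100a8 (-9.17) overlie their values before treatment, while Klf4 moves from 0.91 to 5.48.

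Differences that the inhibitor opened were led by Mrc1 and Fcgr1 and by genes outside the myeloid lists. Lhx2, a LIM homeobox factor, rose from 3.65 and 4.34 to 7.70 and 7.60 against 3.25, 3.29 and 3.45. Nrp1, a co-receptor of semaphorins and VEGF, reached 11.61 and 11.69 against 7.79, 7.66 and 8.17. With lines blocked both were already called higher before treatment (adjusted p = 0.0463 for Lhx2 and 0.0202 for Nrp1) and moved further away. Without inhibitor, line 4 read 7.16 for Lhx2 and 10.33 for Nrp1, toward the treated level, while line 2 read 3.72 and 8.59. Downward, Selenbp1, a selenium-binding protein, fell from 10.23 and 10.44 to 6.35 and 6.12 against 9.82, 9.86 and 10.00, a 17.2-fold fall. Untreated line 4 read 7.76 for Selenbp1 and untreated line 2 read 10.03. Spns2, a sphingosine phosphate transporter, fell to 4.79 and 4.95 against 7.14, 8.52 and 7.21. Osbpl5 fell to 5.02 and 4.80 against 6.95, 7.77 and 8.22, a fall not called with the block (adjusted p = 0.0586).

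Among closed genes, Tnfaip2 rose from 5.55 and 5.48 to 9.24 and 9.35 against 10.71, 10.22 and 11.32, and its remaining difference of -1.45 ± 0.58 was called with the block (adjusted p = 0.0274). Hacd4 rose from 6.13 and 5.97 to 9.43 and 9.63 against 9.74, 10.31 and 11.22. Serpinf1 rose from 5.58 and 5.21 to 8.69 and 8.77 against 11.63, 9.80 and 9.16, a rise not called with the block (adjusted p = 0.0779). Stc2, the glycoprotein hormone stanniocalcin 2, fell from 10.29 and 10.49 to 6.27 and 6.34, at the upper end of 6.08, 5.56 and 6.29.

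Markers of other cell types were measured beside these results. Of 8 mast cell and basophil genes, 5 were lower and 1 higher in treated cells, with Mcpt8, a basophil protease, at 4.85 and 4.73 against 11.31, 9.85 and 8.48. Of 13 megakaryocyte genes, 5 were lower and 2 higher, with Nfe2, a factor of platelet formation, at 7.13 and 7.31 against 12.14, 12.27 and 11.93 (-4.90 ± 0.20) and Vwf at 4.39 and 4.09 against 5.86, 7.93 and 8.32. Of 5 erythroid genes tested, Car2 was higher by 3.07 ± 0.28 and Epor by 0.42 ± 0.09, Gata1 was not called, and Tfrc, the transferrin receptor, was lower by -0.70 ± 0.17 on its main probe set but higher by 2.62 on the probe set of largest variance and by 0.76 on the mean of its 6 probe sets. Of 6 fibroblast and stromal genes, 3 were lower and 1 higher, led by Fn1, fibronectin, which macrophages also make, at 6.06 and 6.08 against 10.46, 8.06 and 10.44 (another probe set differed by -0.96). Summarised as list medians, late neutrophil genes read 5.28 and 5.35 on the treated arrays and 11.51, 7.86 and 10.41 on fusion lines 1, 2 and 3, and macrophage genes 10.19 and 10.26 against 8.68, 8.46 and 9.34. The part of cell mixture in any of these results was not tested. Of 13 reference genes of every cell, 2 were higher and 1 lower, and Actb, actin beta, differed by 0.88 ± 0.08.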

How the data were processed

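Whole-culture RNA of 10 mouse cultures was hybridised to 1-colour Affymetrix arrays. The deposited values are log2 intensities. Per the submitters' processing notes they come from RMA, a method of background correction, quantile normalization and probe summary, with no version given. RMA gives no detection call, and precision is set by how few arrays there are. Of 45101 probe sets, 34958 carried 1 symbol in GEO's platform annotation, 932 carried several and 9211 were not listed; 99.4% of the single symbols matched RefSeq, giving 18194 genes. Each gene was read from its probe set of highest mean, and a gene was tested if 2 or more of the 10 arrays read it over their own median (11993 genes).

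A linear model with 5 coefficients was fitted to all 10 arrays with limma 3.58.1 in R 4.3.3, with Benjamini-Hochberg adjustment over all genes and a threshold of 0.05. Groups came from the labels. The script was tested on simulated data. Named genes were the 10 largest differences on each side, 5 per class and side, a fixed set of Hox, signaling and target genes, and up to 4 members of each of 34 lists; other list members are named to show which were counted or that a setting changed them. The genes and lists were chosen with earlier results of these data known. Treated and untreated arrays share lines by their labels, and their differences between lines 1 and 3 correlated across genes (r = 0.292), so the line was tried as a block. Line numbers of the fusion lines pair nothing (r = 0.041 with treated lines). Alternatives were other probe-set rules, filters, references, array subsets, scaling, a minimum change, blocks and leaving out each array. Promoters came from RefSeq GRCm38.p6. Untreated lines 2 and 4 and the MLL-AF9 array entered the fit but were not compared in any main contrast. Lines 2 and 4 shared 1 coefficient, so the gap between them entered the spread behind every main SE and adjusted p. They were part of the reference in 1 alternative and also entered the block fits.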

Additional observations from a re-analysis of the deposited data

Results flagged for a closer look

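In the 5 reversed genes with the largest difference after treatment, the difference from the fusion lines turned from called lower to called higher. The change between both was itself called by limma. The treated minus untreated difference was 4.75 for Ifi207, an interferon-inducible gene of the p200 family, which read 3.45 and 3.22 untreated, 7.75 and 8.42 treated, and 4.16, 3.95 and 4.42 in the fusion lines. It was 5.39 for P2ry6, 5.03 for Dab2, 5.02 for Tgfbi and 3.85 for Aif1, a calcium-binding protein of macrophages. Aif1 read 4.54 and 4.15 untreated, 8.08 and 8.31 treated, and 5.06, 5.83 and 6.66 in the fusion lines. With the line as a block, Dab2 and Aif1 were no longer called before treatment and Tgfbi was called neither before nor after. Ifi207 and P2ry6 kept their calls, as did Fos, which had a smaller difference and also turned from lower to higher. The difference after treatment was not called for Aif1 and P2ry6 without treated line 3, nor for Dab2 and Tgfbi without either treated array.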

How the results depend on the processing

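Over fits without 1 array, calls after treatment ranged from 2228 to 4977 (higher 789 to 1854, lower 1439 to 3123). Calls before treatment ranged from 3148 to 5506 (higher 1060 to 1964, lower 2088 to 3559), and treatment changes from 28 to 1855 (upward 19 to 1075, downward 9 to 780). Kept genes ranged from 1853 to 3676, 39.8% to 72.9% of differences before, closed from 6 to 678, unresolved from 799 to 2791, reversed from 8 to 75, opened from 8 to 449, and those called only after treatment with no called change from 359 to 1915. Leaving out treated line 1 gave 129 treatment changes and 48 closed genes, treated line 3 gave 28 and 6, untreated line 1 gave 149 and 45, and untreated line 3 gave 123 and 40. An arm left with 1 array is assumed to vary like the other groups.

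With the RH-RAS line as a replicate block, treatment changes numbered 844 (463 upward, 381 downward), closed genes 312 and opened genes 217. With the line number as a replicate block, 90 genes reversed and 503 were called only after treatment with no called change, a class of 505 with all 4 untreated lines as the reference. Required to exceed 2-fold (limma's treat), calls numbered 470 after treatment (165 higher, 305 lower), 607 before (189 and 418) and 33 between treated and untreated cells (25 upward, 8 downward). The classes were then 319 kept, 16 closed, 272 unresolved, 0 reversed, 10 opened and 141 called only after with no called change; fewer genes can pass such a test by construction.

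The probe set of largest variance turned the sign of Dot1l (-1.07), Tfrc (2.62), Kdm2a (0.19) and Psmb4 (0.55), and the mean of probe sets that of Dot1l (-0.46), Tfrc (0.76) and Psmb4 (0.10). Of 3625 alternatives for 173 named genes, 3369 kept direction and call, 200 lost the call, 49 gained it and 7 turned sign. Outside the minimum change, 38 named genes lost the call in at least 1 setting, and not all of them are marked above. Among those not marked, Ccl9, Clec4a3 and Kdm5b lost it without either treated array and Vwf without treated line 3. Signal near the bottom of the arrays limits the folds of the granule genes.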
